A study of Homo sapiens with 12 samples.

Results

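Iron-sulfur clusters are small cofactors of iron and sulfide that proteins hold through cysteine side chains. They are first built in mitochondria, where a cysteine desulfurase supplies sulfur to a scaffold protein, a glutaredoxin passes the finished cluster on, and later factors convert it into the larger form that aconitase, lipoate synthase and respiratory complex I need. A second, cytosolic machinery equips proteins of DNA replication and repair, translation and nucleotide synthesis. The pathway bears on the targets of the study, since ACO1 is the cytosolic aconitase when it carries a cluster and an iron-regulatory RNA-binding protein when it does not.

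The genes described here are 9 members of this machinery, taken by symbol from a table of 70116 genes. They are the scaffold ISCU, the cysteine desulfurase NFS1 and its partner LYRM4, the glutaredoxin GLRX5, the late mitochondrial factors ISCA1, ISCA2 and NFU1, and CIAO1 and CIAPIN1 of the cytosolic machinery. Each symbol matched 1 row, and all 9 were among the 16197 genes that passed the filter on low counts. They were chosen by function, with earlier results of these data known.

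The RNA was from MiaPaCa-2 cells, a human line from a pancreatic carcinoma, transfected with a control small interfering RNA (siControl) or with one against SLC25A1, the mitochondrial citrate carrier (siSLC25A1), ACLY, ATP citrate lyase (siACLY), or ACO1 (siACO1). Each of the 4 groups had 3 libraries, and all groups share the transfection and the parent line. The labels name 3 replicates a group without saying whether they were separate cultures, so the p-values measure the spread between these libraries, which may be technical. The siRNA sequences, their number per target, the time after transfection and the nutrients at harvest are not given in the sources used here, so loss of a target cannot be told apart from other effects of the same siRNA.

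Library totals ran from 24159424 to 43792811 counts. The targeted transcripts were at 8.78% (SLC25A1), 7.25% (ACLY) and 3.75% (ACO1) of siControl in their own knockdowns. Of the markers checked against the label, the keratin genes KRT8 and KRT18 were high in every library, at 750 CPM or more, while EPCAM and CDH1 had at most 2 counts in a library. The summed epithelial markers lay between 3610 and 3740 CPM in siControl, 3130 and 3450 in siSLC25A1, 3820 and 3920 in siACLY, and 2070 and 2180 in siACO1. The summed mesenchymal markers (VIM, ZEB1 and CDH2) lay between 3570 and 3720 CPM in siControl, 3920 and 3990 in siSLC25A1, 4370 and 4910 in siACLY, and 3540 and 3900 in siACO1, with CDH2 at no more than 2 counts in a library. Within these lists KRT19 was at 88.5, 121, 141 and 52.0 CPM and ZEB1 at 63.9, 100.3, 96.8 and 63.5 CPM in the means of siControl, siSLC25A1, siACLY and siACO1. Of 9 markers of leukocytes, endothelium, fibroblasts, acinar and beta cells, 3 (PTPRC, PRSS1 and INS) were at 0 in every library, and 8 had at most 9 counts; COL1A2 was the exception and carried the summed level, between 875 and 895 CPM in siControl, 784 and 845 in siSLC25A1, 827 and 876 in siACLY, and 1550 and 1590 in siACO1. The part of these shifts in the results below was not tested.

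One library stood apart. Replicate 3 of siACO1 differed from the other siACO1 libraries with a chi-square per degree of freedom of 11.3 and 12.1, against 2.27 to 5.50 for all other pairs of replicates. Genes with shorter transcripts were relatively higher in it. Of the 3099 genes whose longest transcript was at most 2172 bases 71.9% lay above the mean of the other siACO1 libraries, and of the 3098 genes at 5207 bases or more 25.6% did. All 9 members lay above that mean, by 0.01 (CIAO1) to 0.31 (ISCU) on the log2 scale. Of all 12393 genes with a length and at least 1 CPM in siACO1, 52.1% did. The longest transcripts of the members run from 1467 bases (NFU1, 0.23 above) to 7312 bases (LYRM4, 0.16 above). The plot of siACO1 with and without replicate 3 shows the changes of all 9 members both ways.

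Because the genes move as transcripts, short stretches of their promoters are shown first, to place what they share and where they differ. Windows from 250 bases before to 50 after the transcription start were taken from RefSeq (GRCh38.p14), which held an entry for all 9 genes (2 for NFU1), and were searched on both strands. The GC box GGGCGG, a binding motif of SP-type factors, was found in the windows of all 9 genes, against 45.0% of the 35116 windows of all genes. The box CCAAT was found in 3 of 9 (GLRX5, ISCA1 and ISCA2), against 34.6% of all windows, and GLRX5 held 5 of them. The YY1-type motif AAGATGGCG was found in 2 of 9 (ISCU and NFU1), against 1.75% of all windows. Also searched were an ETS-type motif (2 of 9, against 10.3% of all windows) and an NRF1-type motif (1 of 9, against 8.32%). The others were TGACGT (2 of 9, against 7.98%), an antioxidant response element core (1 of 9, against 13.3%) and the E-box CACGTG (0 of 9, against 7.26%). The motif AAGATGGCG begins at base 25 counted from the start of ISCU, and at base 11 counted from the start of 1 of the 2 NFU1 entries. Capitals mark the motif in each 30-base stretch, given along the gene.
GLRX5, CCAAT, chr14:95534943-95534972, plus strand: gatcagtattgtCCAATcacggagggcagt
GLRX5, GC box, chr14:95534990-95535019, plus strand: agggcctccaggGGGCGGgtcggactgccg
CIAPIN1, GC box, chr16:57447424-57447453, minus strand: cggccctaaggaGGGCGGaagtcgtcgctc
NFU1, YY1-type, chr2:69437406-69437435, minus strand: actccggactAAGATGGCGgcgacggccag
ISCU, YY1-type, chr12:108562610-108562639, plus strand: gcaagccggcAAGATGGCGgcggctggggc
ISCA1, CCAAT, chr9:86282585-86282614, minus strand: catgcaactcacCCAATggtggcggcgggg
ISCA2, CCAAT, chr14:74493640-74493669, plus strand: ctcccgcactacCCAATaggcatgttgggg
As described below, GLRX5, CIAPIN1 and NFU1 rose in siACO1, ISCA1 fell in siACLY and ISCA2 fell in siSLC25A1. ISCU passed the test described there in no knockdown. The stretches are matches of letters and not tested sites, and any bearing of the motifs on these changes was not tested.

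In control cells the genes differed widely in level per length, the only scale on which genes are compared with each other here. In RPKM over merged exons, which divides the CPM by the exon length in kilobases (mean ± SD, n = 3), CIAPIN1 stood highest at 37.8 ± 0.897 and CIAO1 next at 32.3 ± 0.821. GLRX5 followed at 26.4 ± 0.393, NFU1 at 18.5 ± 0.488, ISCA1 at 13.6 ± 0.620 and ISCU at 11.4 ± 0.231. NFS1 was at 6.53 ± 0.250, ISCA2 at 3.91 ± 0.0643 and LYRM4 lowest at 3.44 ± 0.101. The ranges of the 3 control libraries did not overlap between any neighbours in this order. The length used matters more than the replicates, however: per kilobase of the longest transcript GLRX5 (40.3 ± 0.600) passed CIAO1 (36.3 ± 0.922), and LYRM4 (4.45 ± 0.130) and ISCA2 (4.56 ± 0.0749) lay within their spread. The 9 genes lie on 7 chromosomes, with ISCA2 and GLRX5 on chromosome 14 and NFU1 and CIAO1 on chromosome 2.

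**Figure D1:**
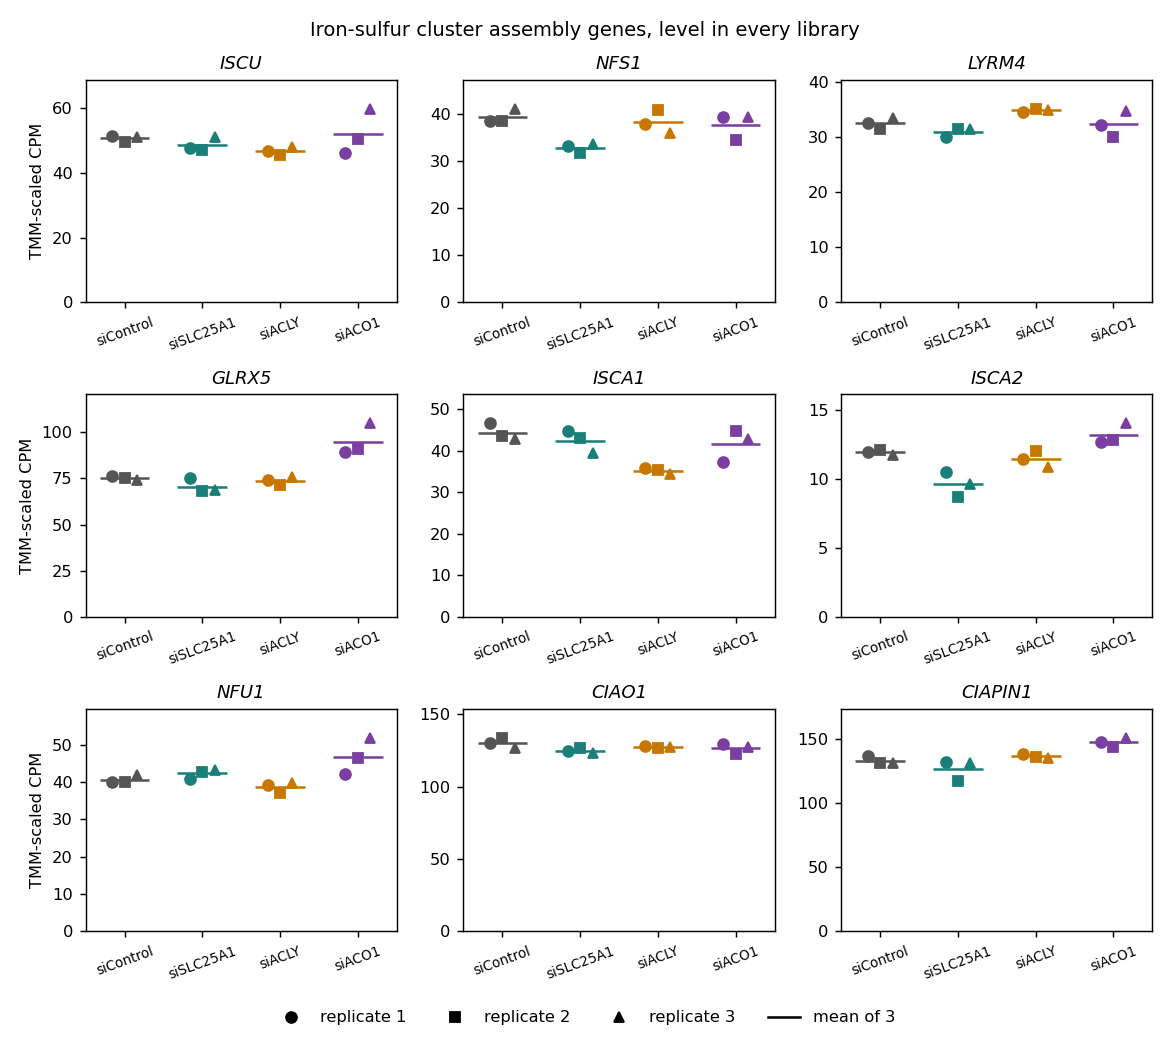
Level of each of the 9 genes in all 12 libraries, as TMM-scaled CPM on axes that start at 0; each symbol is 1 library, its shape gives the replicate, and the line is the mean of 3. The siACO1 libraries of GLRX5 (89.0 to 105 CPM) sit above all others, the siACLY libraries of ISCA1 (34.5 to 35.7 CPM) and the siSLC25A1 libraries of NFS1 and ISCA2 sit lowest in their panels, and CIAO1 is nearly level.

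The members moved little. A gene was called changed at an adjusted p under 0.05 in edgeR's quasi-likelihood test, with adjustment over all genes tested. In siSLC25A1 2 of 9 fell (NFS1 and ISCA2) and none rose, while 19.6% of all tested genes were called, 10.3% as higher and 9.27% as lower. In siACLY 1 of 9 fell (ISCA1) and none rose, while 36.7% of all genes were called, 18.4% as higher and 18.3% as lower. In siACO1 3 of 9 rose (GLRX5, NFU1 and CIAPIN1) and none fell, while 37.1% of all genes were called, 17.8% as higher and 19.3% as lower. The shares of members called, 22.2%, 11.1% and 33.3%, lay near or below those of all genes. The median log2 fold change of the 9 was -0.07 in siSLC25A1, -0.04 in siACLY and 0.05 in siACO1, while the medians over all tested genes lay within 0.01 of 0. Without siACO1 replicate 3 the siACO1 median was -0.05, and 4 of the 9 values were above 0 in place of 5. Without regard to the test, the libraries of 4 members did not overlap with siControl in siSLC25A1, of 4 in siACLY and of 4 in siACO1, counted in either direction. The same held in either direction for 37.1%, 50.5% and 46.3% of all tested genes. The 3 comparisons share their control libraries.

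**Figure D2:**
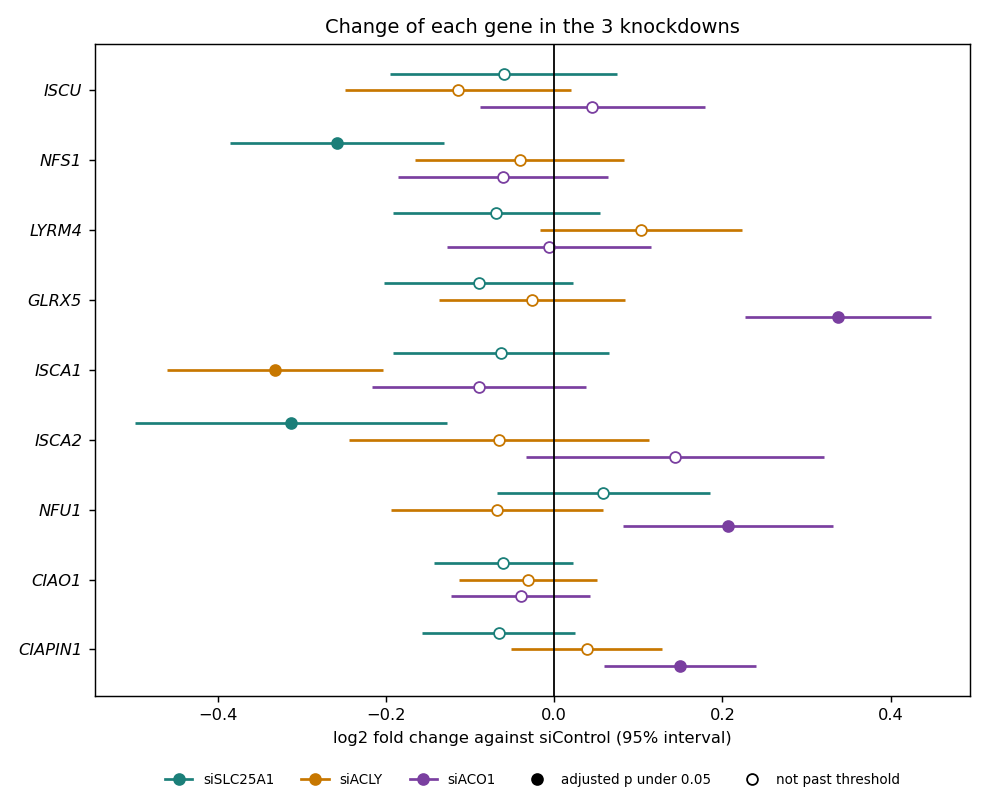
Log2 fold change of each gene in siSLC25A1, siACLY and siACO1 against siControl (horizontal axis) with 95% intervals; filled points passed an adjusted p of 0.05. The 6 filled points are NFS1 and ISCA2 in siSLC25A1, ISCA1 in siACLY, and GLRX5, NFU1 and CIAPIN1 in siACO1, and none lies beyond 0.34 in size.

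The sulfur donor and scaffold complex consists of NFS1, which takes sulfur from cysteine, LYRM4 (also ISD11), a small protein that stabilises it, and ISCU, on which the cluster forms. NFS1 was at 38.5, 38.5 and 41.1 CPM in siControl and at 33.3, 31.7 and 33.6 CPM in siSLC25A1. All 3 siSLC25A1 libraries were below every control library, and also below every siACLY library (36.1 to 40.9 CPM) and every siACO1 library (34.6 to 39.3 CPM). In siSLC25A1 NFS1 fell by 16.4% (log2 fold change -0.26, SE 0.06, adjusted p 0.00297). NFS1 was also lower in siSLC25A1 than in siACLY (-0.22, adjusted p 0.00736) and than in siACO1 (-0.20, adjusted p 0.0118). The first of these differences was not past the threshold without siACLY replicate 2 (adjusted p 0.0711), and the second without siSLC25A1 replicate 2 (0.0636) or siACO1 replicate 1 (0.0589). In siACLY and siACO1 NFS1 differed from control by -0.04 and -0.06, with adjusted p-values of 0.640 and 0.473, and in siACO1 by -0.10 without replicate 3 (0.246). Of the exon bases of NFS1 6.26% overlap other genes, among them ROMO1 on the other strand. ROMO1 was at 48.4 ± 5.02 CPM (SD) in siControl and 42.4 ± 3.42 CPM in siSLC25A1. The part of reads from the overlap in NFS1 was not tested.

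LYRM4 and ISCU passed the test in no knockdown. LYRM4 was at 31.6 to 33.5 CPM in siControl, 30.1 to 31.5 in siSLC25A1, 34.6 to 35.2 in siACLY and 30.1 to 34.7 in siACO1. Its siACLY libraries were above all controls and its siSLC25A1 libraries below them, without passing the test (log2 fold changes 0.10 and -0.07, adjusted p 0.179 and 0.474). Between these knockdowns LYRM4 was lower in siSLC25A1 (-0.17, adjusted p 0.0269), a call that was lost when any 1 of the 6 libraries was left out (-0.18 to -0.15, adjusted p 0.0537 to 0.104). Against siACO1 LYRM4 in siACLY differed by 0.11 (adjusted p 0.144), and by 0.16 without siACO1 replicate 3 (adjusted p 0.0310). With libraries scaled by their totals alone LYRM4 was higher in siACLY than in siControl (0.15, adjusted p 0.0445).

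ISCU was at 51.3, 49.5 and 51.1 CPM in siControl, 47.6, 47.1 and 51.1 in siSLC25A1, 46.6, 45.6 and 48.1 in siACLY, and 46.2, 50.4 and 59.8 in siACO1. The siACLY libraries were below all controls (-0.11, 95% interval -0.25 to 0.02, adjusted p 0.180), and this difference passed the threshold when only these groups were fitted (-0.12, adjusted p 0.0357). The siACO1 libraries spread on both sides of the controls, with replicate 3 highest. Their difference from control was 0.05 (adjusted p 0.629) and -0.07 without replicate 3 (0.346). Between siACLY and siACO1 the difference of ISCU was -0.16 (adjusted p 0.0519); it passed the threshold under 6 of 13 alternatives, with an adjusted p of 0.00379 without siACO1 replicate 1, and was -0.05 without siACO1 replicate 3 (adjusted p 0.485). The scaffold complex in siACO1 gave no call in either direction for any of its 3 genes, with 95% intervals of -0.09 to 0.18 (ISCU), -0.19 to 0.06 (NFS1) and -0.13 to 0.11 (LYRM4).

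GLRX5, the monothiol glutaredoxin that carries clusters from the scaffold to their next acceptors, changed most among the 9 genes in siACO1. It was at 76.3, 75.0 and 74.1 CPM in siControl and at 89.0, 90.8 and 105 CPM in siACO1, from 2074 to 2735 and from 2212 to 3266 counts a library. The groups did not overlap, and the siACO1 libraries were also above all of siSLC25A1 (68.3 to 75.0 CPM) and siACLY (71.2 to 76.0 CPM). The rise was 26.3% (log2 fold change 0.34, SE 0.05, adjusted p 1.03e-05). Without siACO1 replicate 3 it was 0.26 (adjusted p 2.43e-05), and over all 13 alternatives it ran from 0.26 to 0.38.

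GLRX5 was likewise lower in siSLC25A1 than in siACO1 (-0.43, SE 0.05, adjusted p 2.24e-07) and lower in siACLY than in siACO1 (-0.36, SE 0.05, adjusted p 2.53e-06). Against control it differed by -0.09 in siSLC25A1 (95% interval -0.20 to 0.02) and by -0.03 in siACLY (-0.14 to 0.08). GLRX5 lies on chromosome 14 (95533503 to 95544724, plus strand; GENCODE release 29), and 18.2% of its exon bases overlap SNHG10, a non-coding host gene, and SCARNA13 on the other strand. Whether the counting used strand is not given in the sources used here. The level of SNHG10 was 11.1 ± 1.10 CPM (SD) in the 3 siControl libraries and 12.4 ± 1.09 CPM in the 3 of siACO1, and SCARNA13 had no counts. The group means of GLRX5 were 75.2 ± 1.12 and 94.9 ± 8.66 CPM, and the part of reads from the overlap in them was not tested.

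The late mitochondrial factors split across the knockdowns. ISCA1 and ISCA2, paralogous proteins that act together in making the larger clusters, did not fall in the same one. ISCA1 was at 46.5, 43.6 and 42.7 CPM in siControl and at 35.7, 35.3 and 34.5 CPM in siACLY. Every siACLY library was below every library of the other groups, whose lowest was 37.2 CPM (siACO1 replicate 1). In siACLY ISCA1 fell by 20.6% (log2 fold change -0.33, SE 0.06, adjusted p 0.000107), and over all alternatives it ran from -0.36 to -0.29. ISCA1 was also lower in siACLY than in siSLC25A1 (the value of siSLC25A1 minus siACLY was 0.27, adjusted p 0.00149) and than in siACO1 (-0.24, adjusted p 0.00266). In siSLC25A1 it was at 39.4 to 44.7 CPM and in siACO1 at 37.2 to 44.6 CPM, with differences from control of -0.06 and -0.09 (adjusted p 0.538 and 0.278). Of the 31-base stretches of ISCA1 transcripts 15.5% also occur in other genes, mainly pseudogenes such as ISCA1P1, which had at most 7 counts in a library.

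ISCA2 was at 12.0, 12.2 and 11.8 CPM in siControl and 10.5, 8.73 and 9.62 CPM in siSLC25A1, from 217 to 301 counts a library there. The siSLC25A1 libraries were below those of all other groups. ISCA2 fell by 19.5% (log2 fold change -0.31, SE 0.09, adjusted p 0.0133), and the fall was not past the threshold without siSLC25A1 replicate 2 (-0.25, adjusted p 0.0951). In siACO1 ISCA2 was at 12.7, 12.9 and 14.1 CPM, above all controls, with a difference of 0.14 that did not pass the test (adjusted p 0.204; 0.09 without replicate 3, adjusted p 0.485). The knockdowns at both ends differed from each other: ISCA2 was lower in siSLC25A1 than in siACO1 (-0.46, SE 0.09, adjusted p 0.000150; -0.53 to -0.39 over all alternatives). Against siACLY (10.9 to 12.0 CPM) the difference of siSLC25A1 was -0.25 (adjusted p 0.0365), and this call was lost under 6 of the 13 alternatives, with adjusted p-values up to 0.195. NPC2 overlaps 3.36% of the exon bases of ISCA2 on the other strand. It was at 58.9 ± 3.00 CPM (SD) in siControl, 50.2 ± 3.51 in siSLC25A1, 73.7 ± 1.38 in siACLY and 56.0 ± 4.28 in siACO1. The part of reads from the overlap in ISCA2 was not tested.

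NFU1, which delivers clusters to lipoate synthase and to respiratory complexes, rose in siACO1. It was at 40.2, 39.9 and 41.9 CPM in siControl and at 42.1, 46.5 and 51.9 CPM in siACO1, where the lowest library was just above the highest control. The rise was 15.4% (log2 fold change 0.21, SE 0.06, adjusted p 0.00802). Without siACO1 replicate 3 it was 0.12 and not past the threshold (adjusted p 0.0874). In siACLY NFU1 was at 37.1 to 39.9 CPM, below all controls without passing the test (-0.07, adjusted p 0.414), and siACLY was lower than siACO1 (-0.28, adjusted p 0.000553; -0.20 without siACO1 replicate 3, with a highest adjusted p over the alternatives of 0.00514). In siSLC25A1 it was at 40.9 to 43.3 CPM (0.06, adjusted p 0.575).

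The cytosolic members are CIAPIN1, an electron carrier of the early cytosolic steps, and CIAO1, which with CIAO2B and MMS19 hands clusters to target proteins. CIAPIN1 was at 136, 131 and 131 CPM in siControl and at 147, 144 and 151 CPM in siACO1, with no overlap. The rise was 10.9% (log2 fold change 0.15, SE 0.04, adjusted p 0.00804) and stayed past the threshold under all 13 alternatives, with a highest adjusted p of 0.0466. Without siACO1 replicate 3 it was 0.13 (adjusted p 0.0151). CIAPIN1 was lower in siSLC25A1 (117 to 132 CPM) than in siACO1 (-0.22, adjusted p 0.000235). It was also lower in siACLY (135 to 138 CPM) than in siACO1 (-0.11, adjusted p 0.0437), a call that was lost under 8 of the 13 alternatives. COQ9, which overlaps 2.96% of the exon bases of CIAPIN1 on the other strand, was at 107 ± 2.66 CPM in siControl and 119 ± 3.80 CPM in siACO1. Of the 31-base stretches of CIAPIN1 transcripts 11.5% also occur in other genes, among them COQ9 and the pseudogene CIAPIN1P, which had at most 4 counts in a library. The part of reads from shared sequence in CIAPIN1 was not tested.

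CIAO1 changed least. Its libraries lay between 127 and 134 CPM in siControl, 123 and 127 in siSLC25A1, 127 and 128 in siACLY, and 123 and 130 in siACO1. The differences from control were -0.06, -0.03 and -0.04, with adjusted p-values of 0.327, 0.583 and 0.472. The 95% intervals ran from -0.14 to 0.02, from -0.11 to 0.05 and from -0.12 to 0.04, so a change of CIAO1 beyond 0.15 on the log2 scale in either direction lay outside all 3. None of its differences between knockdowns passed the test either (adjusted p 0.626 to 0.886).

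**Figure D3:**
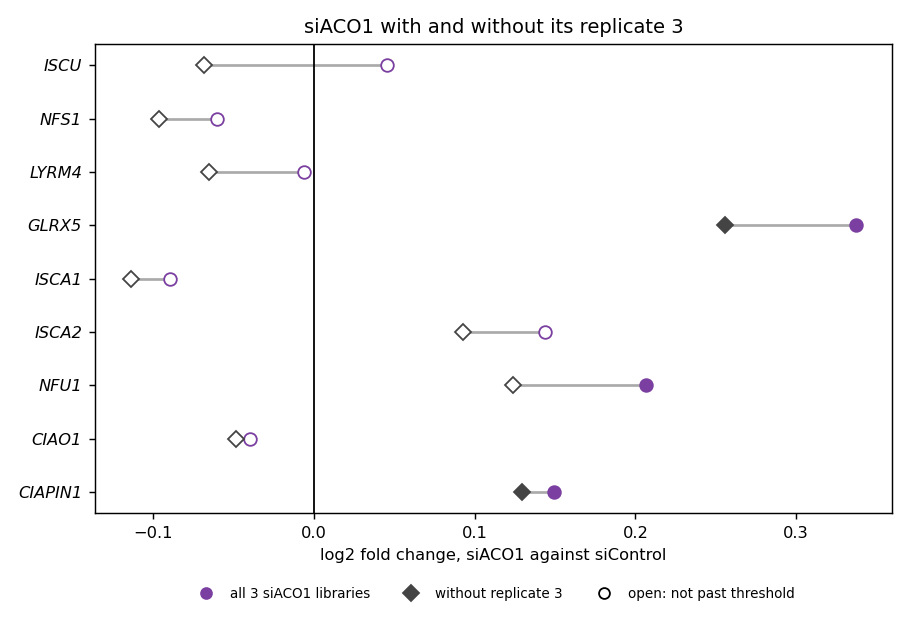
Log2 fold change of each gene in siACO1 against siControl (horizontal axis) from all 3 siACO1 libraries (circles) and without siACO1 replicate 3 (diamonds); filled symbols passed an adjusted p of 0.05. Every diamond lies left of its circle, GLRX5 and CIAPIN1 stay filled, and NFU1 moves from 0.21 to 0.12 and becomes open.

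Compared directly, siSLC25A1 and siACO1 differed in 4 of 9 members, all lower in siSLC25A1 (NFS1, GLRX5, ISCA2 and CIAPIN1), while 42.1% of all tested genes were called, 20.3% as lower and 21.8% as higher. Between siACLY and siACO1 also 4 of 9 differed, all lower in siACLY (GLRX5, ISCA1, NFU1 and CIAPIN1), again beside 42.1% of all genes, 20.7% as lower and 21.4% as higher. Between siSLC25A1 and siACLY 4 of 9 differed, NFS1, LYRM4 and ISCA2 lower and ISCA1 higher in siSLC25A1, beside 33.8% of all genes, 16.3% as lower and 17.5% as higher. In a test for any difference among the 4 groups 6 of 9 members were called (adjusted p 2.24e-07 for GLRX5 to 0.00351 for NFS1), beside 62.3% of all genes. ISCU, LYRM4 and CIAO1 were the 3 that were not (adjusted p 0.145, 0.0824 and 0.569).

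The other genes of the assembly pathway were read from a list of 26, 16 mitochondrial and 10 cytosolic, of which 21 were tested. The 5 that were not (FDX2, BOLA1, GFER, BOLA2 and BOLA2B) had at most 10 counts in a library. How reads in overlapping gene models were counted is not given in the sources used here, so such counts near 0 cannot be told apart from reads that were not assigned. In siSLC25A1 2 of the 21 fell and none rose. In siACLY 3 rose and 6 fell, and in siACO1 3 rose and 7 fell. The median log2 fold changes were -0.03, 0.02 and -0.09. These counts, 9.52%, 42.9% and 47.6% of those tested, stand beside the 19.6%, 36.7% and 37.1% of all genes. With libraries scaled by their totals alone the split was 4 higher and 5 lower in siACLY, and 4 and 5 in siACO1. Without siACO1 replicate 3 it was 2 higher and 10 lower in siACO1.

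The largest difference in the pathway was that of CIAO2B, the partner of CIAO1 and MMS19 in cluster delivery, in siACO1. It was at 98.1, 90.3 and 99.6 CPM in siControl and at 40.3, 41.5 and 47.7 CPM in siACO1, where it fell by 55.0% (log2 fold change -1.15, SE 0.06, adjusted p 2.39e-15; -1.23 without siACO1 replicate 3). In siSLC25A1 and siACLY its libraries, between 91.1 and 103 CPM, overlapped the controls (-0.04 and 0.02). The gene lies on chromosome 16 (66932055 to 66934423, minus strand), and none of its exon bases overlaps another gene of GENCODE release 29. MMS19, the adaptor of the same complex, rose in siACO1 (0.21, adjusted p 0.000615) and in siACLY (0.30, adjusted p 9.1e-06), while CIAO1, as given above, was called in neither.

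HSPA9, the mitochondrial chaperone that helps to release clusters from ISCU, fell in siACO1 from 1077, 1010 and 1071 CPM to 773, 814 and 830 CPM (-0.39, SE 0.04, adjusted p 1.54e-08). IBA57, which works with ISCA1 and ISCA2, fell in siACO1 from 14.8 ± 0.800 to 10.2 ± 0.0838 CPM (-0.53, adjusted p 5.35e-06) and rose in siACLY to 18.5 ± 1.20 CPM (0.32, adjusted p 0.00114). FDXR, the reductase that feeds electrons into cluster synthesis, fell in siSLC25A1 (36.6 ± 2.14 to 30.3 ± 0.675 CPM; -0.27, adjusted p 0.0011) and rose in siACO1 (44.8 ± 1.59 CPM; 0.30, adjusted p 8.57e-05).

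In siACLY BOLA3, a late mitochondrial factor, fell by 0.37 on the log2 scale and SLC25A28, a mitochondrial iron importer, by 0.29. CIAO3 fell there by 0.34, and NUBP1, part of the cytosolic scaffold, rose by 0.39 (adjusted p 0.0113), a call lost without siControl replicate 3 or siACLY replicate 2 (0.34 and 0.30). The counts of CIAO3 and NUBP1 are uncertain, since 21.5% and 36.1% of their exon bases overlap a gene on the other strand.

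**Figure D4:**
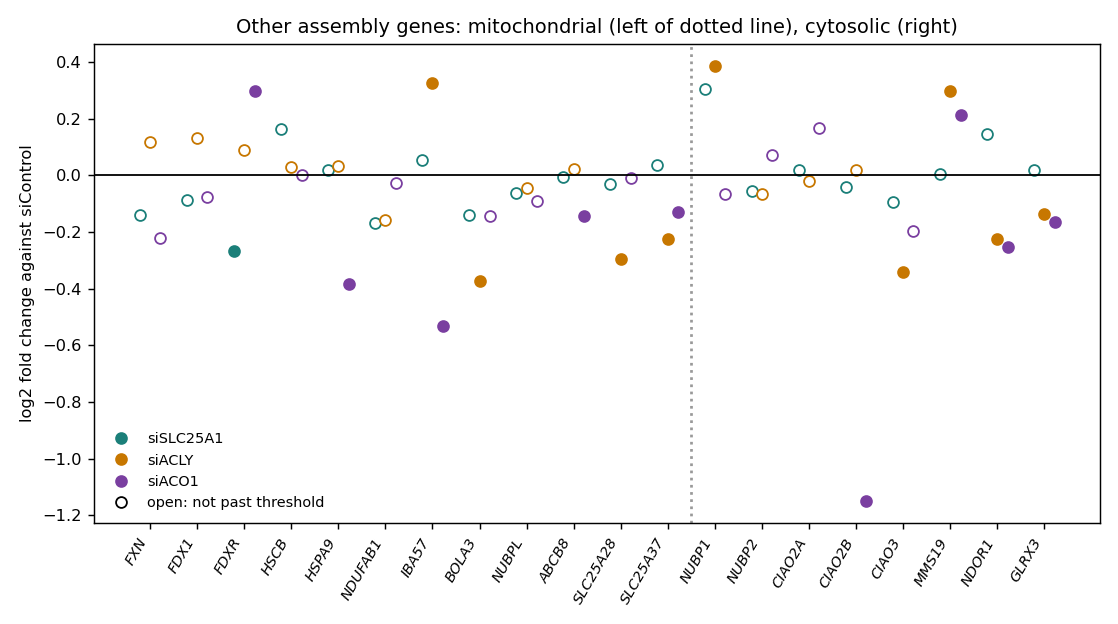
Log2 fold change against siControl (vertical axis) of 20 of the 21 tested assembly genes outside the 9 members, mitochondrial left and cytosolic right of the dotted line; filled points passed an adjusted p of 0.05. CIAO2B in siACO1, at -1.15, lies far below the other points, which run from -0.53 to 0.39.

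Proteins that carry iron-sulfur clusters were read from a list of 38 genes, of which 36 were tested; NDUFS1 and CISD3 had at most 1 count in a library, with the same limit. In siSLC25A1 3 rose and 6 fell, in siACLY 3 rose and 11 fell, and in siACO1 2 rose and 11 fell. Counted in either direction these are 25.0%, 38.9% and 36.1% of those tested, near the shares of all genes given above. Of all genes, 10.3% were called higher and 9.27% lower in siSLC25A1, 18.4% and 18.3% in siACLY, and 17.8% and 19.3% in siACO1. Whether the carriers differ from all genes by direction was not tested. With libraries scaled by their totals alone 3 rose and 8 fell in both siACLY and siACO1. The medians were 0.02, -0.09 and -0.06.

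Among the mitochondrial carriers NDUFS8 of complex I fell in siACLY from 147 ± 5.17 to 117 ± 5.50 CPM (-0.34, adjusted p 1.51e-06). NDUFS8 also fell in siSLC25A1 (-0.21, adjusted p 0.00153) and in siACO1 (-0.17, adjusted p 0.00498). NDUFS7 fell by 0.41 in siACLY and by 0.23 in siACO1 (adjusted p 0.00241), with 49.1% of its exon bases overlapping other genes. MOCS1, which starts molybdenum cofactor synthesis, rose in siACLY from 4.53 ± 0.194 to 10.7 ± 0.418 CPM (1.24, SE 0.13, adjusted p 1.07e-08). Its rise in siSLC25A1 (0.42, adjusted p 0.0326) was lost without any of 5 of the 6 libraries, all except siSLC25A1 replicate 1 (0.33 to 0.45). GLRX2, a mitochondrial glutaredoxin, fell in siACO1 by 0.26 (adjusted p 0.000705).

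Among the cytosolic and nuclear carriers XDH, xanthine dehydrogenase, rose in siSLC25A1 from 17.2 ± 0.789 to 27.0 ± 2.55 CPM (0.65, adjusted p 1.44e-07) and in siACLY to 23.0 ± 0.226 CPM (0.43, adjusted p 3.87e-05), and fell in siACO1 to 14.1 ± 0.895 CPM (-0.29, adjusted p 0.00461). DPYD, which breaks down pyrimidines, rose in siACO1 from 144 to 182 CPM in the group means (0.34, adjusted p 3.51e-07). REV3L, the catalytic part of a translesion polymerase, also rose there (0.25, adjusted p 0.00985), a call lost without siControl replicate 1 (0.20) or siACO1 replicate 2 (0.17). PPAT, the first enzyme of purine synthesis, fell in siSLC25A1 by 0.26 (adjusted p 9.1e-05) and in siACLY by 0.21 (adjusted p 0.000613).

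POLD1, a replicative polymerase, fell in siACLY by 0.35 (adjusted p 3.8e-06), and ELP3, of the elongator complex, rose there by 0.17 (adjusted p 0.00784), a call lost without siControl replicate 2 (0.13). NTHL1, a DNA glycosylase, fell in siSLC25A1 by 0.25 (adjusted p 0.0184), a call lost without siControl replicate 1 or siSLC25A1 replicate 2 (-0.25 and -0.20). A further 3 carriers have uncertain counts, because between 22.9% and 67.2% of their 31-base stretches occur in other genes. Of these TYW1 fell by 0.32 in siSLC25A1, and RTEL1 rose there by 0.53 (lost without siControl replicate 2, 0.41, or siSLC25A1 replicate 1, 0.47). PRIM2 fell by 0.27 in siACO1. In siACLY TYW1 also fell by 0.17 (adjusted p 0.0138) and PRIM2 by 0.17 (adjusted p 0.0307). These siACLY calls were lost under 3 and 6 of the 13 alternatives.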

How the data were processed

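Gene-level read counts, not normalized, were deposited as a single table with a column for each of 12 libraries. The submitters' processing notes name CASAVA, FastQC, Trim Galore, STAR 2.7.0e and DESeq2, and the builds GRCm39 and GRCh38, without their roles; the counting tool, annotation release and use of strand are not given in the sources used here. Per the labels' protocols, poly(A) RNA was primed with random hexamers. A table of gene names matched 89.4% of the identifiers.

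Genes were kept with filterByExpr (16197), scaled by TMM and tested with the robust quasi-likelihood method of edgeR 4.0.16 under R 4.3.3, in 1 model of 4 groups with 8 residual degrees of freedom. Two-sided p-values were adjusted by Benjamini-Hochberg over all genes. Levels are TMM-scaled CPM. Intervals (95%) come from the fit. The members and lists were chosen with earlier results of these data known. Named beside members and targets were, per list and knockdown, the up to 3 called genes with the largest rise and the largest fall at a mean of at least 5 CPM; 1 gene that this rule names is not reported here, though it stands in the counts. A count is called uncertain where at least 20% of exon bases or of 31-base stretches are shared (GENCODE release 29).

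Alternatives were DESeq2 1.42.0, other scalings and filters, only the groups compared, a replicate block, and each library left out. On counts simulated for siACO1 against siControl, edgeR called 85.0% of 100 genes changed by 1 on the log2 scale, 57.9% of 95 changed by 0.5 and 8 of 15611 unchanged. These shifts are larger than any change of a member against siControl. Far fewer genes were changed there than were called in the data, and the deviation of siACO1 replicate 3 was not simulated. The rates therefore do not give the power for the members.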

Additional observations from a re-analysis of the deposited data

How the results depend on the processing

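No called direction reversed under any alternative. Of 702 values of members under alternatives 659 kept their side of the threshold, 25 lost the call and 18 gained it. Counts of members called that moved by over 1.5 times were, in siSLC25A1 against siControl, 1 to 2 over the left-out libraries (2 with all); in siACLY against siControl, 2 with library totals and 2 with only these groups (1 as reported); and between siSLC25A1 and siACLY, 1 to 4 over the left-out libraries (4 with all), with 2 without siSLC25A1 replicate 2 or 3 or siACLY replicate 1 and 1 without siACLY replicate 2. Other assembly genes called in siSLC25A1 numbered 4 without a filter and 4 with only these groups, against 2. The cause was not tested. With library totals the share of higher genes among all calls was 61.0% in siACLY (50.1% with TMM) and 59.5% in siACO1 (47.9%). Same-numbered libraries did not deviate together (18 correlations of -0.034 to 0.0672), so the numbers were not taken as pairs; with a replicate block 2, 1 and 3 members were called in siSLC25A1, siACLY and siACO1, as without it. Among the 9 members ISCA2 had the fewest reads, with 217 to 509 counts a library.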
